A study of Mus musculus with 7 samples.

Results

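Serpins form a large family of proteins that mostly inhibit proteases, and the 63 gene symbols that begin with Serpin were taken from the 24328 symbols measured by RNA-seq in mouse kidney. Each was assigned to a clade by the letter after Serpin. Clade A held 25 symbols, clade B 27, clade E 3, clades F and I 2 each, and clades C, D, G and H 1 each. Of the 63 symbols, 56 had at least 1 read in some library, and the other 7 (Serpina3a, Serpinb11, Serpinb3a, Serpinb3b, Serpinb3c, Serpinb3d and Serpinb9e) were listed at 0 in all 7 libraries. A mean of at least 5 normalized counts over the 4 mice was reached by 36 symbols, 17 of them in clade A and 9 in clade B, and these entered the test.

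The study asked how gene expression in kidney changes when the lamin B receptor (LBR), a protein of the inner nuclear membrane that tethers heterochromatin, is lost. LBR-null mice were homozygous for the loss-of-function allele Lbric-J (genotype Lbric-J/ic-J), and the control was a wild-type littermate (WT, Lbr+/+), all on a C57BL/6J background and 4 weeks old. There were 3 LBR-null mice (4001, 4002 and 4007) and 1 WT mouse (4009). Mouse 4002 had 1 library and the other animals had 2 each, so libraries were averaged within a mouse and n is 3 against 1.

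An inhibitory serpin presents a reactive loop as bait, and a protease that cuts it is trapped in a covalent complex and destroyed with it. Clade A serpins are mostly secreted by the liver into plasma, clade B serpins act inside cells, and several members of clades C to G control coagulation, fibrinolysis and complement. Some members inhibit nothing: they carry hormones or, in the case of Serpinh1, fold collagen in the endoplasmic reticulum.

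The libraries held 20694016 to 26333284 reads on genes, so 1 read was worth 0.787 to 1.15 normalized counts, the unit used throughout. Lbr RNA itself was 322, 340 and 471 in the LBR-null mice and 398 in WT, so its total did not separate the genotypes. All 10 defining kidney markers were detected, with a summed level of 117418 to 212644 in LBR-null libraries and 201837 to 202825 in WT libraries. Of these, 4 were at least 2-fold lower (8.80% of all genes) and 0 higher (22.7% of all genes). Xist was 5785 in mouse 4001 and 9940 in 4007 but 65.3 in 4002 and 35.5 in WT, while the Y-linked Ddx3y was 141, 44.3, 1516 and 1284 in the same order. The labels give no sex. Markers of liver stood apart in mouse 4001: the 15 hepatocyte markers summed to 32224 there, against 12279 in 4002, 17743 in 4007 and 9194 in WT. The 6 skeletal muscle markers summed to 843 in mouse 4001, against 103, 122 and 66.2, through Ckm (579) and Acta1 (191), whereas the other 4 were lowest in mouse 4001 among the LBR-null mice. Whether RNA of other tissue or of another animal entered the libraries of mouse 4001 was not tested, so values are given by mouse.

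In LBR-null kidneys the clade A genes were higher more often than not, while Serpinh1 and Serpina1f stood far below WT. Of the 56 detected Serpin genes, 28 (50%) were at least 2-fold higher in the LBR-null mean than in WT, against 22.7% of all 21468 detected genes. At least 2-fold lower were 6 Serpin genes (10.7%), against 8.80% of all genes. The 28 comprised 15 of 24 detected genes of clade A, 12 of 21 of clade B and 1 of clade I, and 6 of them had no WT read. Mouse 4001 weighed on the upward count, which was 22 of 55 without that mouse (background 21.7%), and the downward count was then 8 (background 9.07%). Mouse 4002 and WT were the 2 animals with low Xist and high Ddx3y. Between this pair alone, 12 of 51 genes were 2-fold higher (23.5%, background 16.9%) and 11 lower (21.6%, background 11.3%). Both shares were above those of all genes there, and higher genes scarcely outnumbered lower ones. Among the 36 tested genes, 13 (36.1%) were 2-fold higher, against 14.5% of the 17283 genes tested, and 3 (8.33%) were 2-fold lower, against 7.04%. Of these 13, 6 reached the mean needed for the test only through the LBR-null mice, and 0 tested Serpin genes reached it only through WT. The upward share of the tested genes was therefore partly built into their choice, and the share without these 6 was not compared with all genes.

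The median difference of the 36 tested Serpin genes was 0.49 on the log2(normalized count + 1) scale, beside 0.01 for all genes tested, and 23 of the 36 lay above 0. The 6 genes tested only because of their LBR-null level were all above this median, from 0.79 (Serpina9) to 2.33 (Serpinb9g). Part of the median and of the count above 0 was thus built into the choice of genes. These 6 belong to clades A and B and entered the clade medians as well. The median was 0.93 over the 17 tested clade A genes, 0.39 over the 9 of clade B and -0.13 over the 3 of clade E. The clade A median moved with the mice, to 0.41 without mouse 4001, 1.23 without 4002 and 1.43 without 4007. Separation of the libraries told less of the family. In 15 Serpin genes (26.8%) the lowest LBR-null library exceeded the highest WT library, near the 22.2% of all genes. In 6 (10.7%) the reverse held, against 21.4% of all genes.

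With 3 mice against 1, limma called 0 Serpin genes (2-fold or more, adjusted p under 0.05), and 0 of all genes tested (background 0%). At an unadjusted p under 0.05 it had 5 Serpin genes higher (Serpina12, Serpina1a, Serpina3n, Serpinb13 and Serpinb9g; background 10.7%) and 2 lower (Serpina1f and Serpinh1; background 8.05%), with the lowest adjusted p in the family at 0.080, for Serpina1f. Of the 36 tested genes, 6 (Serpina12, Serpina3j, Serpina9, Serpinb12, Serpinb13 and Serpinb9g) had a WT level under 5 and reached the mean of 5 only through the LBR-null mice, so for these a difference upward was built into the choice. The quasi-likelihood test of edgeR also called 0 Serpin genes (background 0.162%). DESeq2, which gave an adjusted p for 32 of the 36, called Serpina1a and Serpina3n higher (background 3.24%) and Serpina1f and Serpinh1 lower (background 3.48%). Without mouse 4001 limma called 5 of 36 Serpin genes (background 6.76%), and without mouse 4002 it called 3 of 37 (background 3.62%). All 3 tools take the spread over LBR-null mice for the lone WT mouse as well, whose 2 libraries measure technical spread only.

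**Figure D1:**
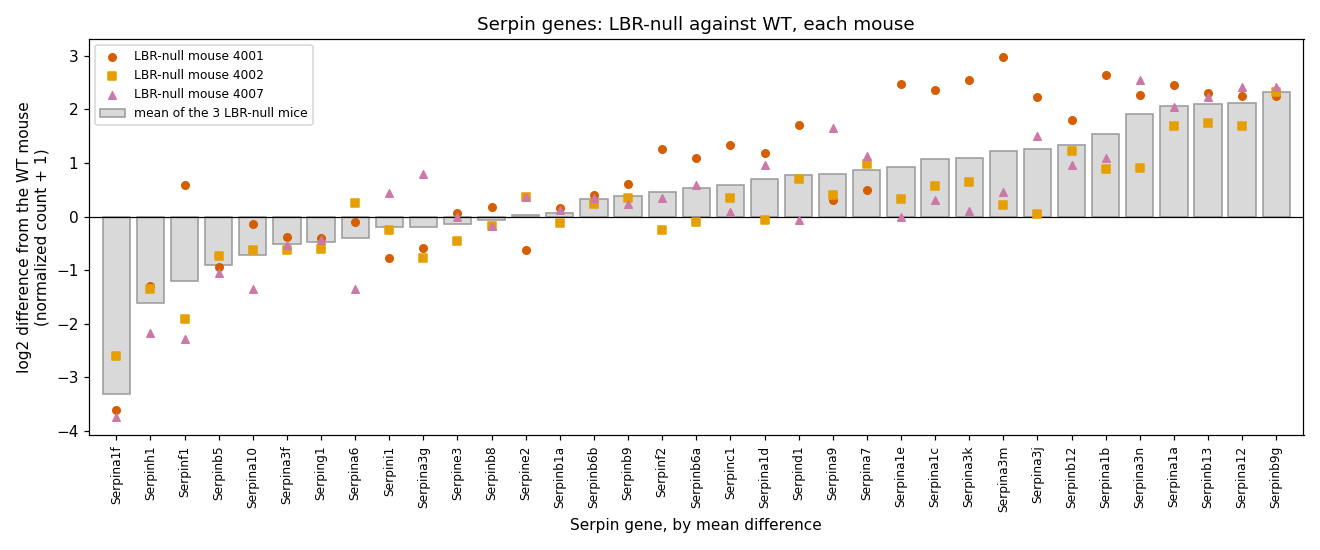
Difference of each LBR-null mouse from the WT mouse on the log2(normalized count + 1) scale for 35 of the 36 tested Serpin genes, ordered by the mean of the 3 mice (bars). Symbols are single mice: the 3 agree in sign at both ends of the order, from Serpina1f (mean -3.31) to Serpinb9g (mean 2.33), and mouse 4001 stands alone above the others for Serpina1e, Serpina3k, Serpina3m and Serpinf1.

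The first group to describe are the Serpina1 genes, mouse copies of the gene for alpha-1-antitrypsin, the main plasma inhibitor of neutrophil elastase. They lie in a run of 24 Serpin genes on chr12:104854885-105652539 (mm9), with Serpina1f first, then Serpina1b, Serpina1d, Serpina1a, Serpina1c and Serpina1e, all on the minus strand. Coding sequences of Serpina1a to Serpina1e were 96.3% to 98.5% identical in pairs, whereas Serpina1f shared 57.6% to 58.6% with each of them. The RefSeq promoters (GRCm38.p6) set the same genes apart. The letters GTTAAT, part of the binding site of HNF1, a transcription factor of liver and proximal tubule, stood before the start in all of Serpina1a to Serpina1e. On either strand they occurred in 7.10% of the 32851 promoters of 300 bases, and in 11 of the 52 Serpin symbols with a promoter, these 5 among them. A symbol counted if any of its promoters held the letters, whereas the share of all is per promoter, so the units differ. The 61 bases around these letters, written in capitals, are shown for the 5 copies because they are nearly the same sequence in genes that differed in level. Counted position by position, Serpina1b and Serpina1c matched Serpina1a at all 61, Serpina1e at 60 and Serpina1d at 57.
Serpina1a (chr12:103863625-103863685, minus strand): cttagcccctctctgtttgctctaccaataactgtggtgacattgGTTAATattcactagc
Serpina1b (chr12:103738200-103738260, minus strand): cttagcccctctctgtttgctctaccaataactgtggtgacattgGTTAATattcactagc
Serpina1c (chr12:103904962-103905022, minus strand): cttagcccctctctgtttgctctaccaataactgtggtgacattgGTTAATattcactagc
Serpina1d (chr12:103773634-103773694, minus strand): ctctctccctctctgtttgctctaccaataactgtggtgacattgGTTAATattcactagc
Serpina1e (chr12:103956960-103957020, minus strand): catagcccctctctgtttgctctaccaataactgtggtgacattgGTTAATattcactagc
The 300-base promoter of Serpina1f held neither GTTAAT nor its reverse complement, which says only that these letters are not in that window. Its last 61 bases before the start are given for comparison.
Serpina1f (chr12:103695530-103695590, minus strand): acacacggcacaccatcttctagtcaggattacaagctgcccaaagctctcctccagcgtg

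Serpina1a, at chr12:105091799-105104137 (mm9), measured 8192 and 6799 in the libraries of mouse 4001, 4395 in that of 4002, and 5739 and 5535 in those of 4007, while WT had 1383 and 1356. All 5 LBR-null libraries were above both WT libraries. The mean was 5843 ± 1560 (SD, n = 3) against 1369, a 4.27-fold difference, and the fitted log2 difference was 2.06 ± 0.35 (SE; adjusted p = 0.091 by limma, 1.03e-05 by DESeq2). Without mouse 4001, limma gave 1.86 with an adjusted p of 0.012, without mouse 4002 2.25 (adjusted p = 0.017), and without mouse 4007 2.07 (adjusted p = 0.21).

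Serpina1b was 663 and 485, 169, 195 and 198 in the same order, and 70.9 and 111 in WT. Its LBR-null libraries were all higher as well, but the 3.44-fold mean difference (adjusted p = 0.29 by limma) was carried mostly by mouse 4001. The other copies overlapped with WT. Serpina1c averaged 158 ± 133 against 59.7, Serpina1d 465 ± 184 against 269, and Serpina1e 68.6 ± 68.2 against 25.8 (SD, n = 3), with limma adjusted p values of 0.51, 0.50 and 0.65. Mouse 4001 was the highest for all 3, with Serpina1c at 311, 88.6 and 74.7, Serpina1d at 611, 259 and 525, and Serpina1e at 147, 32.7 and 25.8 in mice 4001, 4002 and 4007. In mouse 4007 Serpina1a was 4.12 times its WT level while Serpina1e was level with WT.

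Reads of these copies may have been shared out among them. Of the windows of 150 bases, the length of a read, in the coding sequence of Serpina1a, 53.0% occur unchanged in another Serpin gene, and the share was 53.0% for Serpina1c, 24.2% for Serpina1b, 23.0% for Serpina1d and 9.88% for Serpina1e. How shared reads were counted is not given in the sources used here, so the sum over the 5 copies is set beside the single values. It was 9139, 4945 and 6459 in mice 4001, 4002 and 4007 and 1815 in WT, so each LBR-null mouse was above WT.

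Serpina1f went the other way and had the largest log2 difference of the tested members. It measured 540 and 427 in mouse 4001, 966 in 4002, 443 and 438 in 4007, and 5887 and 5858 in WT. No LBR-null library came near the WT libraries, and mouse 4002 was the highest of the 3. The mean of 630 ± 292 (SD, n = 3) was 9.32-fold below the WT value of 5872, with a log2 difference of -3.31 ± 0.46 (SE; adjusted p = 0.080 by limma, 0.064 by edgeR, 2.72e-08 by DESeq2). Without mouse 4002 limma gave -3.67 (adjusted p = 0.0019), without mouse 4001 -3.17 (adjusted p = 0.013), and without mouse 4007 -3.10 (adjusted p = 0.092). Mouse 4002 and the WT mouse, the 2 animals with low Xist, differed 6.08-fold. The gene lies at chr12:104926254-104933739 (mm9), 30831 bases beyond Serpina6 and 32626 bases before Serpina1b. Those neighbours did not share its direction in each mouse: Serpina6 overlapped with WT and Serpina1b was higher in all 5 LBR-null libraries. None of its 150-base coding windows occurs in another Serpin gene. Of 12 proximal tubule markers, 6 were at least 2-fold lower (background 8.80%) and 2 at least 2-fold higher (background 22.7%). They summed to 319021, 344902 and 205010 in mice 4001, 4002 and 4007 and to 550164 in WT. The single gene Kap made up much of these sums, at 128162, 205800 and 59162 in the LBR-null mice and 357146 in WT. All 7 proliferation markers were lower in every LBR-null library (background 21.4%), with sums of 408, 292 and 241 against 2310. The part of these cells in the level of Serpina1f was not tested.

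**Figure D2:**
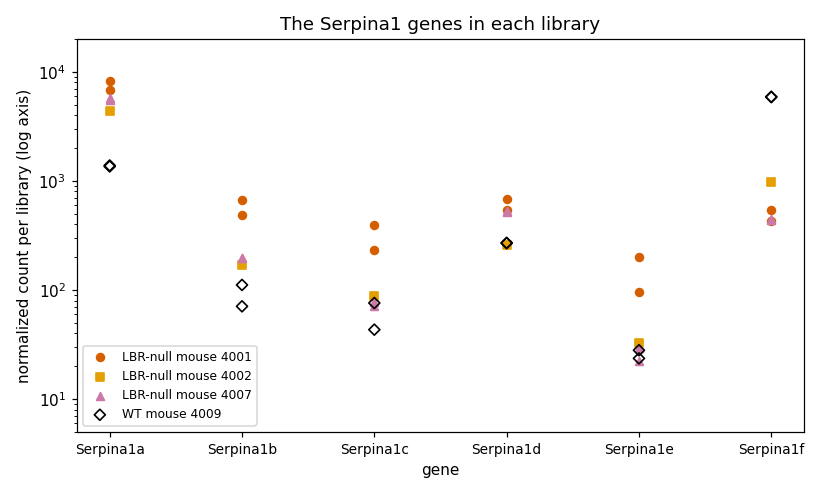
Normalized counts of the 6 Serpina1 genes in each library, on a log axis, with filled symbols for LBR-null mice and open diamonds for WT. Serpina1a and Serpina1b are higher in all LBR-null libraries, Serpina1f is lower in all of them, and Serpina1c, Serpina1d and Serpina1e overlap with WT.

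The Serpina3 genes, relatives of the gene for alpha-1-antichymotrypsin, lie at the other end of the same run. Serpina3n, an acute-phase serpin that inhibits granzyme B and neutrophil proteases, was 192 and 141, 64.5, 210 and 195 in the LBR-null libraries and 33.1 and 34.4 in WT. Every LBR-null library was higher, with mouse 4002 the lowest of them. The mean of 144 ± 71.5 (SD, n = 3) was 4.28-fold the WT value of 33.7, a log2 difference of 1.91 ± 0.66 (SE; adjusted p = 0.20 by limma, 0.031 by DESeq2). Without mouse 4002 limma gave 2.41 with an adjusted p of 0.032, without mouse 4001 1.73 (adjusted p = 0.13), and without mouse 4007 1.59 (adjusted p = 0.50). Neutrophil markers followed the same order of mice: all 10 were 2-fold higher (background 22.7%) and their sum was 1116, 418 and 2605 in mice 4001, 4002 and 4007 and 84.0 in WT. The part of neutrophils in the level of Serpina3n was not tested, and in bulk RNA more cells of a type cannot be told apart from more RNA per cell.

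Serpina3k, a kallikrein-binding serpin of liver, was 922 and 511 in mouse 4001, 189.2 in 4002, 118 and 141 in 4007, and 119 and 123 in WT. Serpina3m was 102 and 71.9, 12.0, 12.1 and 16.4 in the same order, against 9.45 and 10.9. Both were several-fold above WT in mouse 4001 alone, although all LBR-null libraries were above WT for Serpina3m, and the limma adjusted p was 0.55 and 0.60. Serpina3g, an intracellular member induced in T cells and macrophages, was 40.2 to 57.7 in mice 4001 and 4002, 129 and 131 in mouse 4007, and 61.4 and 86.8 in WT. It thus lay below WT in 2 mice and above it in the third. Serpina3f averaged 6.59 ± 0.66 against 9.80 and Serpina3j 6.54 ± 4.86 against 1.63 (SD, n = 3), and both overlapped with WT.

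**Figure D3:**
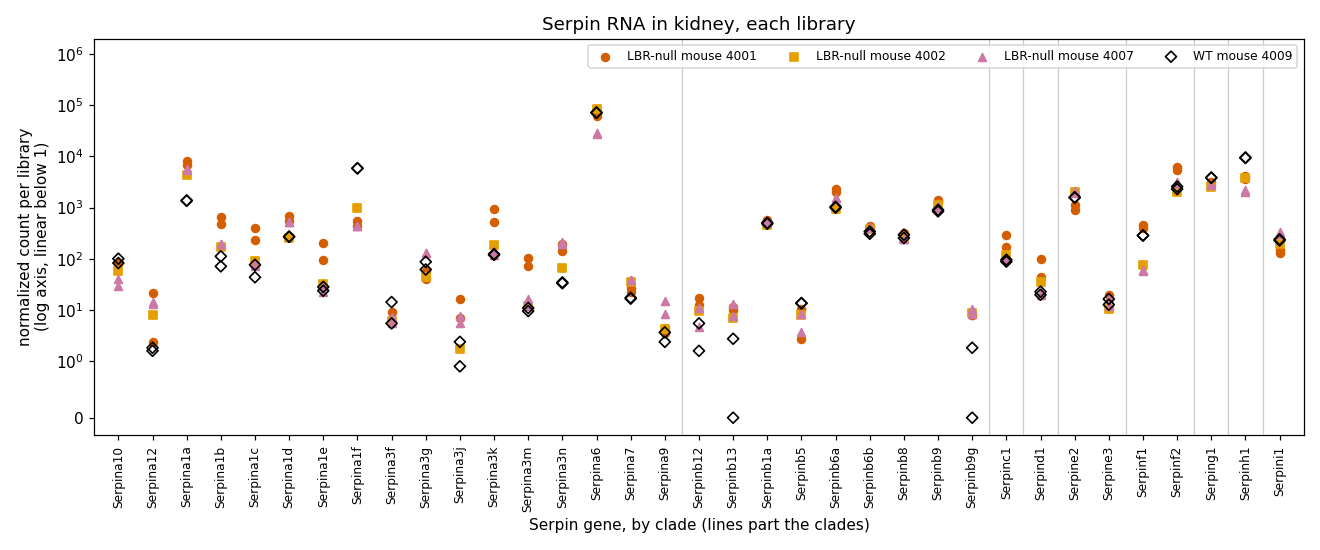
Normalized count of 35 of the 36 tested Serpin genes in all 7 libraries, by clade, on an axis that is logarithmic above 1 and linear below. Filled symbols are LBR-null mice and open diamonds WT: Serpina6 is the highest symbol in every mouse, Serpina1f and Serpinh1 show WT above all LBR-null libraries, and Serpina1a shows the reverse.

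The hormone carriers of clade A do not inhibit proteases. Serpina6, corticosteroid-binding globulin, which carries glucocorticoids in blood, had the highest level per length of the family: 34304 ± 16701 normalized counts per kb of exon in LBR-null mice (SD, n = 3) and 40903 in WT. Its values were 70880 and 62818 in mouse 4001, 86068 in 4002, 27765 and 28861 in 4007, and 71815 and 72246 in WT. Mice 4001 and 4002 lay on either side of WT and mouse 4007 was 2.54-fold lower (limma log2 difference -0.40 ± 0.74, SE, adjusted p = 0.81). The kidney marker sum was likewise lowest in mouse 4007, at 118680 against 202331 in WT, and the part of tissue makeup in the level of Serpina6 was not tested. Serpina7, thyroxine-binding globulin and the one clade A gene off chromosome 12, on X, was 21.8 and 26.6, 34.4, 38.2 and 38.3 in the LBR-null libraries and 16.5 and 17.2 in WT. Its groups did not overlap, yet the 1.91-fold difference had an adjusted p of 0.39 by limma.

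Among other plasma carriers on a list of 13, of which 12 were measured and tested, 7 were 2-fold higher and none 2-fold lower (background 22.7% and 8.80%), and limma called 0, while 2 higher and 1 lower had an unadjusted p under 0.05. Their median log2 difference was 2.17 in mouse 4001, 0.36 in 4002 and -0.0098 in 4007. Those separated upward were Apoh, which binds phospholipids (334 ± 248 against 31.5), Gc, the vitamin D carrier (3269 ± 2105 against 509), and Hpx, which binds heme (457 ± 380 against 187; SD, n = 3). Afm, a vitamin E carrier, was separated downward, at 1143 ± 231 against 2152. Agt, the non-inhibitory serpin relative that yields angiotensin and carries no Serpin symbol, was 3118 ± 803 against 3074.

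Serpina12, the adipokine vaspin, measured 2.30 and 21.3 in mouse 4001, 7.74 in 4002, 14.0 and 12.8 in 4007, and 1.57 and 1.81 in WT. All LBR-null libraries were higher, although 1 library of mouse 4001 rested on 2 reads, as did each WT library. The log2 difference was 2.12 ± 0.61 (SE, adjusted p = 0.14 by limma). Of 8 adipocyte markers, 5 were 2-fold lower (background 8.80%), among them Adipoq, at 29.6, 2.58 and 7.83 in the LBR-null mice and 120 in WT. The 1 marker 2-fold higher (background 22.7%) was Pck1, which proximal tubule also expresses, at 125085 ± 55001 against 39117. Serpina9, a serpin of germinal centre B cells, averaged 6.57 ± 4.25 against 2.99, and its groups overlapped. Serpina10, an inhibitor of factor Xa that acts with protein Z, averaged 58.6 ± 23.8 against 91.2 (SD, n = 3), also with overlap.

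Serpins of the coagulation system came next to the liver-made Serpina genes in their pattern over mice. Serpinc1, antithrombin, was 291 and 172, 117, 97.8 and 97.5 in the LBR-null libraries and 95.3 and 87.7 in WT. Every LBR-null library was above WT, narrowly so in mouse 4007. Serpind1, heparin cofactor II, was 98.8 and 43.5, 35.3, 19.6 and 21.0 against 19.7 and 22.6. Serpinf2, alpha-2-antiplasmin, which inhibits plasmin, was 6142 and 5517, 2057, 3030 and 3217 against 2580 and 2308. The latter 2 genes overlapped with WT, and the limma adjusted p was 0.60 for Serpinc1, 0.60 for Serpind1 and 0.70 for Serpinf2.

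Mouse 4001 gave the highest value for each of these. Over 11 serpins secreted by hepatocytes (Serpina1a to Serpina1e, Serpina3k, Serpina3m, Serpina10, Serpinc1, Serpind1 and Serpinf2, a set chosen after their values were seen), the median ratio to WT was 5.22 in mouse 4001, 1.28 in 4002 and 1.251 in 4007. Other serpins that liver secretes lacked the high value of mouse 4001: Serpina6 was 0.928 times WT there, Serpina7 1.44 times and Serping1 0.756 times. The 15 hepatocyte markers had median ratios of 5.60, 1.43 and 1.24 in the same mice. The 2 libraries of mouse 4001 also differed from each other in the same genes. Library 1 was above library 2 for 10 of the 11 serpins, with a median ratio of 1.42, and for 15 of the 15 hepatocyte markers, with a median ratio of 1.61. Over all genes with a mean of at least 50 the median ratio was 1.02. Over the other tested Serpin genes with such a mean it was 1.12, with 10 of 15 above 1. In mouse 4007 the medians were 0.942 for the 11 serpins and 0.988 for the hepatocyte markers. Alb, the main hepatocyte product, was 11133 and 6385 in mouse 4001 and 1559 and 1571 in WT. The part of liver RNA in these serpin levels was not tested. Serpina1a was 3.21-fold above WT in mouse 4002 and 4.12-fold in mouse 4007. In the latter mouse 6 of the 15 hepatocyte markers were at least 2-fold above WT, among them the fibrinogen genes Fga (3946 against 529) and Fgg (1279 against 181), while Alb, at 1546, was level with WT.

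**Figure D4:**
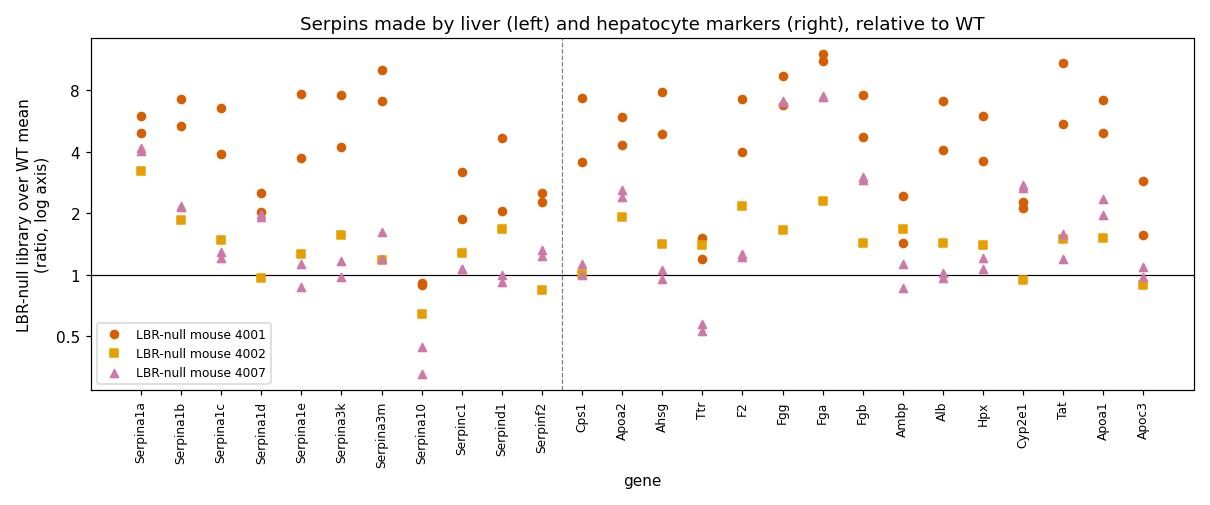
Each LBR-null library divided by the WT mean, on a log axis, for 11 serpins secreted by hepatocytes (left of the dashed line) and 15 hepatocyte markers (right). Mouse 4001 is highest for most genes on both sides, and Serpina1a is the only serpin on the left for which all LBR-null libraries are over 3 times the WT mean.

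Proteases, most of them targets of serpins, did not move as a block. Of 39 measured, 1 of them at 0 in all libraries, 13 were 2-fold higher (background 22.7%) and 7 were 2-fold lower (background 8.80%). The median log2 difference of the 33 tested was -0.17. By limma 0 were called, while 1 higher (background 10.7%) and 4 lower genes (background 8.05%) had an unadjusted p under 0.05. Prothrombin (F2), the zymogen of the target of Serpinc1 and Serpind1, was 91.5 ± 69.9 against 30.4, and F7 was 6.25 ± 2.55 against 2.09. Plasminogen (Plg), the zymogen of the target of Serpinf2, was 113 ± 89.6 against 46.2 (SD, n = 3). Like the serpins that block their active forms, F2 and Plg were highest in mouse 4001, at 171 and 216. Protein C (Proc) was lower, at 289 ± 93.3 against 952, and so were the serine protease Htra1, at 907 ± 145 against 2218, and Mmp9, a metalloprotease that serpins do not trap, at 31.9 ± 27.2 against 96.3. Granzyme A (Gzma) was 7.57 ± 4.23 against 1.69. Neutrophil elastase (Elane) had few reads, with 5.73 ± 4.63 against 1.30.

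Clade E serpins control plasminogen activators. The activators did not follow one course: urokinase (Plau) was 27459 ± 12218 against 11663 and separated from WT, and tissue plasminogen activator (Plat) was 3766 ± 2301 against 5029 with overlap (SD, n = 3). Serpine2, protease nexin-1, which inhibits thrombin and urokinase, was 1129 and 914 in mouse 4001 but 2032, 2132 and 1957 in the other LBR-null libraries, on either side of the WT values of 1589 and 1568. Serpine3 was 13.2 ± 2.56 against 14.4, with overlap.

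Serpins and their protease complexes are cleared from blood by endocytic receptors, and several depend on heparin-like cofactors. Of 22 such receptors and cofactors, 2 were 2-fold higher (background 22.7%) and 2 lower (background 8.80%). By limma 0 were called, while 1 higher (background 10.7%) and 5 lower (background 8.05%) had an unadjusted p under 0.05. Lrp2, megalin of the proximal tubule, was 8188 ± 3368 against 23320. Pnpla2, a lipase that binds the product of Serpinf1, was 8001 ± 1600 against 3023 (SD, n = 3). In both genes the LBR-null libraries were separated from WT.

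Serpinh1, the collagen chaperone HSP47, was lower in every LBR-null library. It measured 4081 and 3628 in mouse 4001, 3726 in 4002, 2008 and 2175 in 4007, and 9558 and 9355 in WT. No LBR-null library reached the WT level, and mouse 4007 was the lowest. The mean of 3224 ± 983 (SD, n = 3) was 2.93-fold below 9456, a log2 difference of -1.60 ± 0.40 (SE; adjusted p = 0.12 by limma, 0.0068 by DESeq2), and limma gave -1.76 without mouse 4001 (adjusted p = 0.034), -1.74 without mouse 4002 (adjusted p = 0.061) and -1.32 without mouse 4007 (adjusted p = 0.31). The gene lies at chr7:106493885-106501740 (mm9), minus strand.

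Genes of collagen synthesis were low with it. Of 24 measured, 16 were lower in every LBR-null library (background 21.4%) and 2 higher (22.2%), 7 were 2-fold lower (8.80%) and 1 higher (22.7%), and the median log2 difference of the 23 tested was -0.59; limma called 0, while 8 lower (8.05%) and 1 higher gene (10.7%) had an unadjusted p under 0.05. The collagen chains Col1a1 (1186 ± 525 against 6661), Col1a2 (5144 ± 845 against 15137), Col3a1 (3959 ± 3809 against 11206) and Col5a1 (696 ± 97.5 against 1939) were all below WT in each library, as was Pcolce, an enhancer of procollagen cleavage (1436 ± 511 against 4006; SD, n = 3). The 2 genes higher in every LBR-null library were Lox, which crosslinks collagen, at 4594 ± 998 against 971, and Colgalt1, which adds galactose to it, at 1473 ± 67.1 against 1304 (SD, n = 3). Markers of fibroblasts and smooth muscle summed to 30356, 15115 and 18709 in mice 4001, 4002 and 4007 and to 36257 in WT. Of the 10, 3 were at least 2-fold lower (background 8.80%) and 2 at least 2-fold higher (background 22.7%). Col1a1 and Col3a1 belong to both this list and the collagen list, so the 2 are not independent, and these genes were a large part of the WT sum. The part of stromal cell number in the level of Serpinh1 was not tested.

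Serpinf1, pigment epithelium-derived factor, an anti-angiogenic serpin that binds collagen, split the LBR-null mice. It was 462 and 399 in mouse 4001, above WT at 287 and 283, but 74.8 in 4002 and 59.6 and 56.5 in 4007. Mice 4002 and 4007 were below WT by 3.81-fold and 4.91-fold. With all mice the log2 difference was -1.20 ± 1.06 (SE, adjusted p = 0.59 by limma), and it was -2.10 without mouse 4001 (adjusted p = 0.018), -0.84 without mouse 4002 (adjusted p = 0.68) and -0.66 without mouse 4007 (adjusted p = 0.90). Of the 10 markers of fibroblasts and smooth muscle, 2 had this order of mice, Lum and Postn, both matrix proteins, and 8 did not. Lum was 1058 in mouse 4001, 43.8 in 4002, 31.7 in 4007 and 146 in WT. Serping1, the C1 inhibitor of complement and kallikrein, was 3107 and 2711, 2530, 2909 and 2783 in the LBR-null libraries and 3855 and 3841 in WT. All LBR-null libraries were lower, by 1.39-fold in the mean (log2 difference -0.48 ± 0.24, SE, adjusted p = 0.35 by limma).

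**Figure D5:**
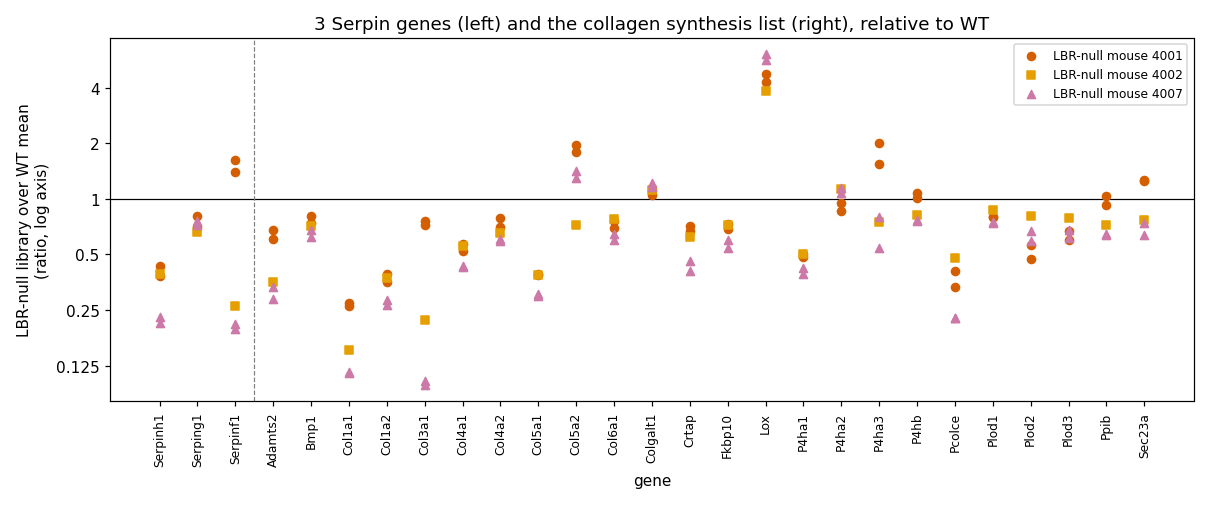
Each LBR-null library divided by the WT mean, on a log axis, for Serpinh1, Serping1 and Serpinf1 (left of the dashed line) and the 24 measured genes of collagen synthesis (right). Serpinh1 lies under 0.5 in all libraries, Serpinf1 is above 1 in mouse 4001 alone among the LBR-null mice, and Lox is the gene on the right with all libraries over 3.

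The intracellular serpins of clade B are described from the abundant to the scarce. Serpinb9, which inhibits granzyme B and shields cells from their own cytotoxic granules, was 1279 and 1377, 1106, 1064 and 993 in the LBR-null libraries and 844 and 902 in WT. Serpinb6b was 420 and 436, 382, 415 and 407 against 340 and 308. Both had every LBR-null library above WT, by 1.32-fold and 1.26-fold in the mean, with limma adjusted p values of 0.46 and 0.54. Serpinb6a, an inhibitor of cathepsin G, was 1551 ± 616 against 1014, Serpinb1a, an inhibitor of neutrophil elastase, was 516 ± 53.0 against 493, and Serpinb8 was 265 ± 38.8 against 274 (SD, n = 3). These 3 overlapped with WT.

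The clade B genes of epithelium were scarce. Serpinb13, an inhibitor of lysosomal cathepsins in squamous epithelium, had 8 to 14 reads in each LBR-null library and 0 and 3 in WT, and the ratio per unit of depth was 7.57 (95% exact interval 2.45 to 37.9, counting error only). Serpinb9g had 7 to 11 reads in each LBR-null library and 0 and 2 in WT, a ratio of 10.2 (2.68 to 87.1). The groups of both were separate, and the limma adjusted p was 0.15 and 0.12, but both entered the test only through their LBR-null level. Serpinb9g and Serpinb9f share 98.7% of their coding sequence, and 18.6% of its windows of 150 bases occur in the other, so their counts are uncertain. Serpinb12 was 10.7 ± 3.63 against 3.50 with overlap. Serpinb5, maspin, was lower in every LBR-null library, at 6.75 ± 0.89 against 13.5 (SD, n = 3). The markers of urothelium and squamous epithelium, 11 in all, summed to 1009 to 1724 in LBR-null libraries and 1596 to 1671 in WT. In every LBR-null library 6 were lower (background 21.4%) and 1 higher (background 22.2%). At least 2-fold lower were 4 (background 8.80%) and higher 1 (background 22.7%), and the median log2 difference was -0.68 over the 10 tested. Serpini1, neuroserpin, which inhibits tissue plasminogen activator, was 145 and 130, 196, 329 and 304 in the LBR-null libraries and 228 and 240 in WT, with mouse 4007 above WT and the other mice below.

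The remaining 20 detected Serpin genes had means under 5 and were not tested. Of these, Serpina11, Serpinb9b, Serpinb9d and Serpinb9f were separated upward from WT, with at most 12 reads in any one library, and Serpina3c downward, with 0 to 3 reads in an LBR-null library and 14 and 5 in WT. The other 15 (Serpina3b, Serpina3h, Serpina3i, Serpina4-ps1, Serpina5, Serpinb10, Serpinb1b, Serpinb1c, Serpinb2, Serpinb6c, Serpinb6d, Serpinb6e, Serpinb7, Serpinb9c and Serpini2) overlapped. Of the 28 Serpin genes counted as 2-fold higher, 15 were among these 20, where a few reads per library decide the ratio.

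Other inhibitors of plasma and tissue proteases, which are no serpins, gave a comparison with the family. Of 26 measured, 9 were 2-fold higher (background 22.7%) and 1 lower (background 8.80%), with a median log2 difference of 0.23. By limma 0 were called, while 5 higher (background 10.7%) and 1 lower gene (background 8.05%) had an unadjusted p under 0.05. The stefins Stfa1, Stfa2 and Stfa3, cathepsin inhibitors of neutrophils, were 9.72 ± 7.17, 24.02 ± 21.9 and 11.8 ± 12.2, with Stfa1 and Stfa2 listed at 0 in WT and Stfa3 at 0.452. A2m was 17.5 ± 11.8 against 1.63, Timp4 was 76.0 ± 26.5 against 29.0, and Tfpi2 was 111 ± 32.0 against 266 (SD, n = 3).

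Per length of exon, the order of the members differed between the groups. In WT, Serpina6 (40903 normalized counts per kb) was followed by Serpinh1 (3884), Serpina1f (1844), Serping1 (1655), Serpinf2 (1052) and Serpina1a (605). In LBR-null mice, Serpina6 was followed by Serpina1a (2581 ± 689), Serpinf2 (1579 ± 837), Serpinh1 (1324 ± 404), Serping1 (1188 ± 87.3) and Serpine2 (444 ± 153; SD, n = 3). Over the 3 mice the range of Serpinf2 (885 to 2508) overlapped with those of Serpina1a (1941 to 3311), Serpinh1 and Serping1, and the range of Serpine2 (267 to 534) with that of the next gene, Serpina1d (186 to 438). Serpina1f was at 198 ± 91.7 per kb there.

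The Serpin genes shared a base composition that the choice of members did not use. Around each transcript start in mm9 a window of 1000 bases was scored, and it was called CpG-rich where GC content reached 50% and CpG was found at over 0.6 times the rate that C and G content give. Only 2 of the 63 Serpin genes (3.17%), Serpinb6a and Serpine2, had such a window, against 49.97% of the 20796 genes with a gene model. Both were within 2-fold of WT and overlapped with it. Among the 54 detected Serpin genes without a CpG-rich start, 51.9% were 2-fold higher and 11.1% lower, beside 35.7% and 13.4% of all detected genes without one and 8.19% and 4.95% of those with one. In the RefSeq promoters the GC box GGGCGG, on either strand, occurred in 8 of the 52 Serpin symbols with a promoter and in 35.7% of all promoters. The TATA box letters TATAAA occurred in 15 of them and in 13.6% of all promoters. Both Serpin counts are per symbol, with 61 promoters in all, whereas the shares of all are per promoter.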

How the data were processed

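Kidney RNA of 3 LBR-null mice and 1 WT mouse was measured in 7 libraries of paired reads of 150 bases. Per the authors' notes, STAR 2.6.0 aligned the reads to mm9. The authors deposited a signal per gene symbol, the read count divided by the size factor of DESeq2 1.25.1; the counting program and annotation are not given in the sources used here. All values were whole multiples of 1 read within 0.01 (100%), so reads were recovered. No column was left unmapped (0). limma 3.58.1 (R 4.3.3, trended eBayes, Benjamini-Hochberg) was fitted to the mouse means as log2(normalized count + 1), over the 17283 genes whose mean reached 5, with 2 residual degrees of freedom. edgeR 4.0.16 and DESeq2 1.42.0 were run on reads summed per mouse. The fits were tested on simulated data. Members with a mean of at least 5 were named with their values, and the rest by counts; 1 tested member and 1 list gene entered all counts but are not reported here. List genes were named where they were 2-fold apart without overlap, at most 6 per list by size of difference, besides F2, Plat, Plau, Plg, Elane, Col1a1, Col3a1 and Agt. Lum, Postn, Alb, Fga, Fgg, Adipoq, Pck1, Afm, Colgalt1 and the set of 11 hepatocyte serpins were chosen after their values were seen. Members and lists were chosen with earlier results of these data known. Gene models are GENCODE vM1 (mm9), identities came from Biopython 1.88, and promoters from RefSeq (GRCm38.p6), which matched 52 of 63 symbols, and had none for members that include Serpina6, Serpina10, Serpina3k, Serpina3m, Serpina3h, Serpina9, Serpina4-ps1, Serpinb1a, Serpinb13 and Serping1. Motifs were searched on both strands.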

Additional observations from a re-analysis of the deposited data

Results flagged for a closer look

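In 2 of 36 tested Serpin genes, 1 of the 5 LBR-null libraries lay far from the others by Dixon's criterion, which chance alone meets in about 1 in 20 groups, and libraries from 1 mouse are not independent samples. Serpina1f was 966 in mouse 4002, with the next library at 540 and the lowest at 427. Serpinb9g was 10.2 in library 1 of mouse 4007, with the next library at 8.60 and the lowest at 7.99, a difference of a few reads.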

How the results depend on the processing

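Of the 36 tested Serpin genes, 29 kept the sign of their log2 difference in each alternative that gave a value, which for Serpina3j left out those without mouse 4001 or 4007 and for Serpina9 that without mouse 4007 (too low a mean). When a mouse or a WT library was left out, the other 7 ranged across 0: Serpina3f from -1.003 to 0.24, Serpina3g from -0.68 to 0.11, Serpina6 from -0.73 to 0.075, Serpinb8 from -0.18 to 0.049, Serpine2 from -0.13 to 0.37, Serpine3 from -0.30 to 0.049 and Serpini1 from -0.51 to 0.091. Serpina3g was also 0.0087 with edgeR and 0.012 with DESeq2, and Serpine2 was -0.033 with each library as a sample. The clade E median ranged from -0.30 to 0.027. The count of 2-fold higher Serpin genes was 10 of 56 with 5 added to both groups (17.9%, against 8.89% of all genes). It was 13 of 36 at a mean of at least 5 (36.1% against 14.5%), but 6 of these 13 reached that mean only through the LBR-null mice. The count of 2-fold lower ones at that mean was 3 (8.33% against 7.04%). Fewer low genes can pass by construction. Leaving out a mouse or a WT library gave 22 to 29 higher (all genes 20.1% to 24.3%), 4 to 8 lower (8.54% to 9.98%), 17 to 21 separated upward (25.3% to 33.2%) and 7 to 10 separated downward (24.3% to 29.5%), and without mouse 4001 32.7% of Serpin genes and 33.2% of all genes were separated upward. limma then called 0 to 5 Serpin genes (5 without mouse 4001, 3 without mouse 4002). It called 7 of 36 with each library as a sample (background 15.9%), which treats libraries of one mouse as independent, and DESeq2 called 4. The median log2 difference was 0.23 to 0.71 when a mouse or WT library was left out, lowest without mouse 4001 and highest without mouse 4002. With mouse 4002 alone against WT, the pair alike in Xist, a comparison added after seeing the data, 12 of 51 detected Serpin genes were 2-fold higher (background 16.9%), 11 lower (11.3%), 25 separated upward (46.6%) and 17 downward (39.7%); the cause was not tested. No paired analysis was possible because only 1 WT mouse was measured. The replicate numbers of the labels count libraries within a genotype, and the mouse means carry no numbers. Genes with a few reads have wide counting intervals, as for Serpinb9g (a ratio of 2.68 to 87.1).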
